A study of Mus musculus with 12 samples.

Results

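CAST/EIJ and PWD/PHJ are inbred mouse strains founded from wild mice, of the castaneus and the musculus subspecies respectively, and their F1 progeny carry a set of chromosomes from each parent strain. The reads of all SNPs assayed in this F1 were taken from the count files by the cross named in each row, which gave 23 of the 89 SNPs of the series. The series covered 5 such crosses. For this cross, liver and skeletal muscle were dissected from 2 F1 littermates at 4 weeks of age, with no treatment named in the labels, and about 0.3 g of each littermate's tissue was combined before RNA extraction. A piece of about 50 mg, from either organ of either littermate, gave the genomic DNA (gDNA). The labels name neither the sex nor the direction of the cross, and the parental strain of each allele was not used here. Each mRNA group was therefore a single pool of tissue from 2 animals and the gDNA a single piece from 1 of them, without a further biological replicate, and the 3 replicates below are repeated sequencing runs of the same amplicons.

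In an F1 animal both alleles of a gene share one nucleus and the same trans-acting factors, so an unequal mRNA level of the alleles marks a difference in cis, in the transcription, processing or stability of the transcript itself. A microRNA, a short RNA that guides silencing proteins to matching sites in mRNAs, is such a trans-acting factor, and a SNP in its site can spare the transcript of a single allele. The amplicons of the series were chosen for sites of miR-1 and miR-133, which are typical of muscle, for sites of miR-122, which is typical of liver, and for control sites. Which kind of site each of the 23 SNPs represents was not used here.

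Each SNP was amplified with its own primer pair, and the same pair served gDNA, muscle mRNA and liver mRNA. No primer of the 23 SNPs was shared with another SNP of the series, so each SNP was a separate amplicon. The primers, 21 to 23 bases long and written here 5′ to 3′ in lower case, define what was read. The pairs shown are those of the 3 SNPs whose tissue difference was called by Fisher's exact test, the quasi-binomial model and the test with extra variance between amplicons, and of the 2 SNPs that led the muscle comparison.
rs32579269 forward: ggagtctaacccacggcatct
rs32579269 reverse: ctctttctaacccctgctggc
rs46192522 forward: cgttgccagcctgaagaataa
rs46192522 reverse: atcggagtgttcatgctttgc
rs27073510 forward: gagtgtgctgagtgtgaggca
rs27073510 reverse: ctaaccattcccttctcccaca
rs32125166 forward: aaagagctccgaaggaagctg
rs32125166 reverse: tttccagctcctgttgcttgt
rs33901248 forward: ttgtcccacagagggagacag
rs33901248 reverse: ctcgattgtcagctctcctgc

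For 1 SNP a primer could be placed from RefSeq promoter windows. The forward primer of rs49639594 matched chr10:75053185-75053206 (GRCm38.p6, plus strand), inside the annotated gene Rab36, which encodes a small GTPase of the Rab family. Whether this match is the only one in the genome was not tested, and the other 22 SNPs were not placed.

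Of the 23 SNPs, 12 were measured in both tissues, 7 in muscle and gDNA alone, and 4 in liver and gDNA alone. They comprised 16 transitions (8 between A and G, 8 between C and T) and 7 transversions. The gDNA amplicons had 2049 to 8466 reads summed over runs, with a median of 4382. In muscle mRNA the median was 4506 (488 to 13384). Liver mRNA had a median of 4486 (947 to 9638). The lowest depths were those of rs30872764, which had reads in only 2 of 3 runs of both mRNA templates. Amplicons had been mixed in equal amounts, so read totals say nothing of expression, and the share of each allele within an amplicon was the measurement. Confidence intervals below are at 95%. They and the p-values of Fisher's exact test and the exact binomial test cover counting error only. Amplified reads without molecular identifiers are not independent molecules, so a call describes the reads of these amplicons and not a difference between animals. A SNP is said to be called where the p-value, adjusted by the Benjamini-Hochberg method over all SNPs of the series in that comparison, was under 0.05.

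Genomic DNA holds both alleles of an autosomal SNP in equal number and was the reference for bias of the amplification. At 19 of the 23 SNPs both alleles lay between 45% and 55% of gDNA reads, and the median share of the more frequent allele was 51.5%. The 4 others were skewed. The G allele of rs33901248 took 91.1%, 89.5% and 91.0% of gDNA reads in runs 1 to 3, 9.61 times as many as C. The T allele of rs30872764 took 79.0%, 81.2% and 81.7%, or 4.14 times as many as A. The C allele of rs32125166 took 65.4%, 65.0% and 65.6%, or 1.88 times as many as T. At rs27073510 the A allele took 59.2%, 57.3% and 56.5%, a 1.37-fold excess over G. At each of these 4 SNPs all 3 runs lay on the same side of 1:1.

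Departure from 1:1 was called at 9 of the 23 SNPs (39.1%) by an exact binomial test, against 24.7% of all 89 SNPs. Apart from those 4, the called SNPs were rs32323885 (T over C, 1.16-fold), rs49639594 (A over G, 1.12-fold), rs46192522 (C over T, 1.11-fold), rs48677813 (G over A, 1.101-fold) and rs27772383 (A over C, 1.10-fold). The median ratio of the more to the less frequent allele was 1.06-fold, and 1.04-fold over all SNPs of the series. The cross held 3 of the 5 SNPs of the series with at least a 1.5-fold gDNA ratio. With a quasi-binomial model, rs33901248 and rs30872764 alone remained called. Its error is the spread between the 3 runs, but never less than counting error. The model did not call rs32125166, whose gDNA runs had an SD of 0.334 percentage points where counting gives 1.23. Loss of a call with this model is therefore not in itself evidence of spread between runs. Without run 3 the exact binomial test called 5 SNPs. Counts over the 89 SNPs of the series with this model and without run 3 are not given here, so these losses are not set against the series.

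**Figure D1:**
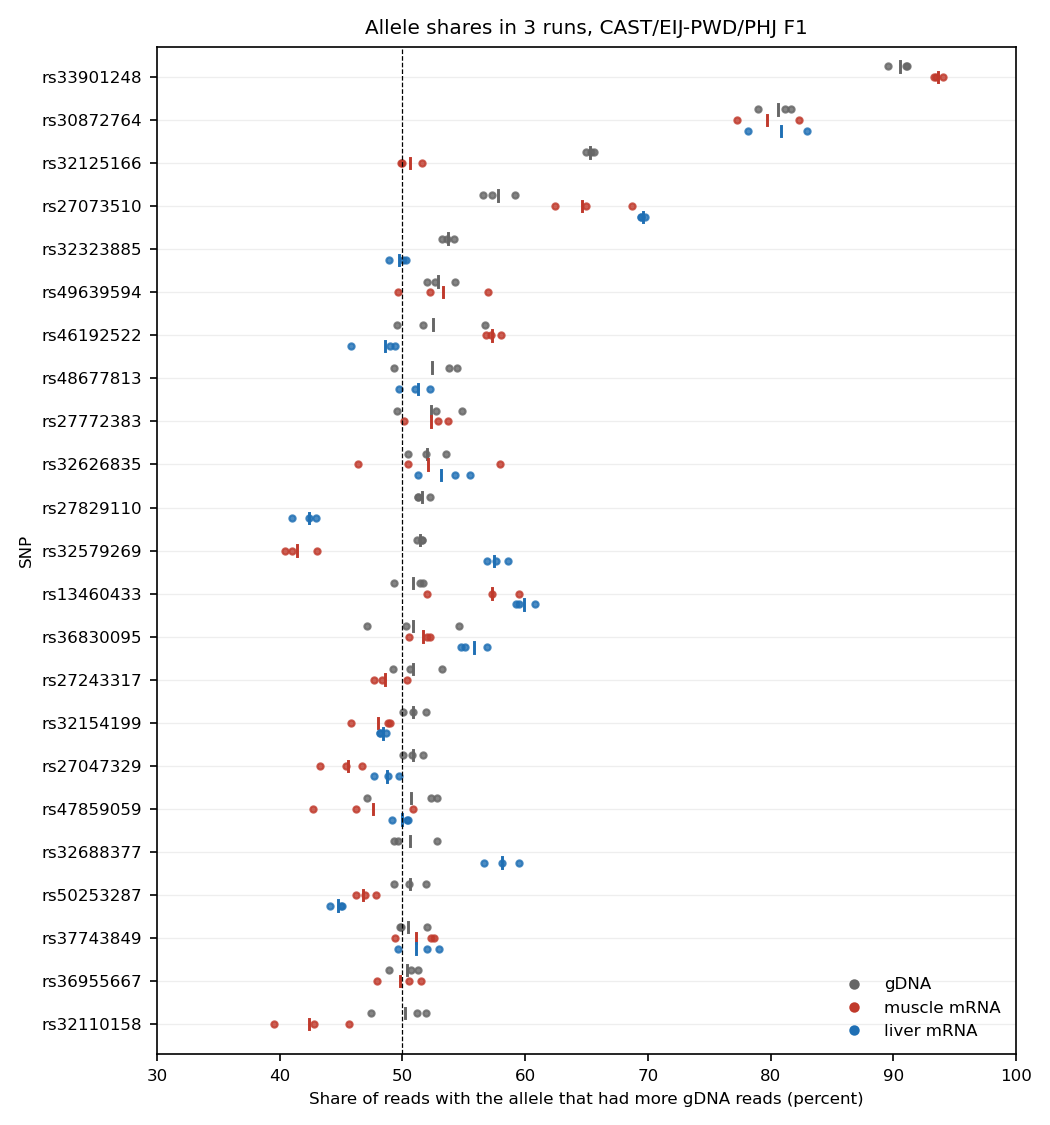
Share of reads (percent, x axis) that carried the allele with more gDNA reads, for each of the 23 SNPs (y axis) in gDNA (grey), muscle mRNA (red) and liver mRNA (blue). Points are single runs and vertical bars the share of the reads summed over runs; the dashed line marks 50%. At rs32579269 the muscle and liver points lie on opposite sides of gDNA, and at rs32125166 the muscle points lie near 50% while gDNA lies near 65.3%.

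Muscle mRNA was set against gDNA to ask whether the alleles of a transcript differ in level in muscle. A shift of the allele ratio against gDNA was called at 10 of 19 SNPs (52.6%), and 62.7% of the 75 SNPs of the whole series were called in this comparison. The median shift of the allele ratio was 1.13-fold over the 19 SNPs and 1.17-fold over all 75. The strongest shift was at rs32125166. Its T allele made up 34.6%, 35.0% and 34.4% of gDNA reads and 50.1%, 48.4% and 50.0% of muscle reads in runs 1 to 3. Muscle mRNA was thus near 1:1 at this SNP, and the shift towards T, 1.84-fold (1.69 to 1.99), was relative to a gDNA ratio that favoured C (adjusted p = 8.46e-49 by Fisher's exact test). Read against 1:1 without gDNA, muscle mRNA at this SNP was not called (adjusted p = 0.409 by the exact binomial test).

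At rs33901248 the G allele, already in large excess in gDNA, made up 93.4%, 93.5% and 94.1% of muscle reads. All of these exceeded the highest gDNA run, and the ratio of G to C was 1.54-fold (1.36 to 1.74) that of gDNA (adjusted exact p = 9.09e-11). The C allele contributed 6.33% of 8054 muscle reads and 9.42% of 5827 gDNA reads.

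At rs32579269, gDNA was even, with G at 48.4%, 48.8% and 48.4%. In muscle G took 59.0%, 59.6% and 57.0% of reads, a 1.499-fold rise of G over A (1.37 to 1.64; adjusted exact p = 3.08e-18). Muscle runs and gDNA runs did not overlap, and gDNA runs differed by less than counting alone gives (SD 0.226 percentage points).

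The A allele of rs32110158 rose from 48.8%, 48.0% and 52.5% in gDNA to 54.3%, 57.2% and 60.4% in muscle. The shift was 1.37-fold over G (1.20 to 1.57; adjusted p = 5.94e-06 by Fisher's exact test), measured on 1423 muscle reads, and the adjusted p was 0.0583 with the quasi-binomial model. At rs27073510, A rose from a share of 57.7% ± 1.35 in gDNA (SD, n = 3 runs) to 62.4%, 65.0% and 68.7% in muscle, 1.34-fold over G (1.22 to 1.47; adjusted exact p = 7.09e-09). The spread between its muscle runs was wide, with log2 shifts of 0.20, 0.47 and 0.75.

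The other called SNPs shifted by 1.29-fold or less. They were rs13460433 (A over C, 1.29-fold), rs27047329 (T over C, 1.23-fold), rs46192522 (C over T, 1.21-fold), rs50253287 (C over T, 1.17-fold) and rs32154199 (G over A, 1.12-fold). All 10 called SNPs shifted towards a single allele in every run, and at each of them the runs of muscle and gDNA did not overlap. The calls rest on these same runs, so this is not separate support, and the share over the series was not worked out. Some margins were small. At rs13460433 the lowest muscle run had 52.0% A and the highest gDNA run 51.6%, and at rs46192522 these values were 56.8% and 56.7% C. The quasi-binomial model called 5, namely rs32125166, rs33901248, rs32579269, rs27073510 and rs27047329. Over the whole series it called 23 of 75 SNPs.

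The 9 SNPs not called in muscle are given with the fold and its interval. They were rs47859059 (T over C, 1.13-fold, 0.985 to 1.30), rs27243317 (G over T, 1.10-fold, 1.003 to 1.20), rs30872764 (A over T, 1.06-fold, 0.828 to 1.35), rs36830095 (G over A, 1.03-fold, 0.941 to 1.13), rs37743849 (A over C, 1.03-fold, 0.965 to 1.09), rs36955667 (T over C, 1.02-fold, 0.947 to 1.11), rs49639594 (A over G, 1.01-fold, 0.905 to 1.14), rs32626835 (A over T, 1.001-fold, 0.866 to 1.16) and rs27772383 (C over A, 1.001-fold, 0.930 to 1.08). The interval of rs37743849, read 7814 times in muscle, ended at 1.09-fold, while that of rs30872764, with 488 muscle reads, reached 1.35-fold. At rs47859059, C took 50.9%, 46.2% and 42.7% of muscle reads and 47.1%, 52.8% and 52.3% of gDNA reads in runs 1 to 3, so that run 1 was the lowest in gDNA and the highest in muscle. Without run 1 this SNP was called (adjusted p = 0.0032 by Fisher's exact test), as was rs36830095 (adjusted p = 0.0343).

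Liver mRNA was set against the same gDNA reads. A shift against gDNA was called at 11 of 16 SNPs (68.8%), and 65.6% of the 64 SNPs of the series were called. The median shift was 1.17-fold over the 16 SNPs and 1.18-fold over all 64. The strongest was at rs27073510, where A made up 69.5%, 69.8% and 69.5% of liver reads. These runs were nearly identical (SD 0.197 percentage points), and all lay above every gDNA run. The shift of A over G was 1.67-fold (1.57 to 1.79; adjusted p = 3.27e-50 by Fisher's exact test).

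At rs27829110, C rose from 48.7%, 47.7% and 48.7% in gDNA to 57.6%, 57.1% and 59.0% in liver, 1.45-fold over T (1.33 to 1.58; adjusted exact p = 4.19e-16). At rs13460433, A rose from 51.6%, 49.3% and 51.4% to 59.3%, 60.8% and 59.5%, 1.44-fold over C (1.30 to 1.60; adjusted exact p = 3.91e-12). Both SNPs had near-even gDNA reads, so the liver mRNA reads of these amplicons were themselves uneven. At rs32688377, A rose from 49.3%, 49.6% and 52.8% to 56.7%, 59.5% and 58.1%, 1.35-fold over G (1.24 to 1.48; adjusted exact p = 1.1e-10). At rs32579269 it was the A allele that rose in liver, from 51.6%, 51.2% and 51.6% in gDNA to 57.7%, 56.9% and 58.6%, 1.28-fold over G (1.17 to 1.39; adjusted exact p = 3.11e-08). The favoured allele was thus G in muscle and A in liver.

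The other called SNPs were rs50253287 (C over T, 1.27-fold), rs36830095 (G over A, 1.22-fold), rs32323885 (C over T, 1.17-fold), rs46192522 (T over C, 1.17-fold), rs32154199 (G over A, 1.10-fold) and rs27047329 (T over C, 1.09-fold). At rs32323885 the liver share of C was 50.3%, so the shift rests on a gDNA share of 46.3%. All 11 called SNPs kept their direction in all 3 runs, with no overlap between liver and gDNA runs. Here too the calls rest on the same runs, and the share over the series was not worked out. Some margins were small. At rs46192522 the highest liver run had 49.4% C and the lowest gDNA run 49.6%. At rs36830095 the lowest liver run had 54.8% G and the highest gDNA run 54.6%. The quasi-binomial model called 6, namely rs27073510, rs27829110, rs13460433, rs32688377, rs32579269 and rs50253287, as did the test with extra variance between amplicons. Over the whole series each of these tests called 26 of 64 SNPs.

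The 5 SNPs not called in liver were rs32626835 (A over T, 1.05-fold, 0.955 to 1.15), rs48677813 (A over G, 1.05-fold, 0.965 to 1.13), rs47859059 (T over C, 1.03-fold, 0.940 to 1.13), rs37743849 (A over C, 1.03-fold, 0.963 to 1.09) and rs30872764 (T over A, 1.02-fold, 0.838 to 1.24). At rs30872764 the gDNA skew was matched in mRNA, with T at 80.9% of 947 liver reads and 79.7% of 488 muscle reads against 80.6% of 2049 gDNA reads.

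**Figure D2:**
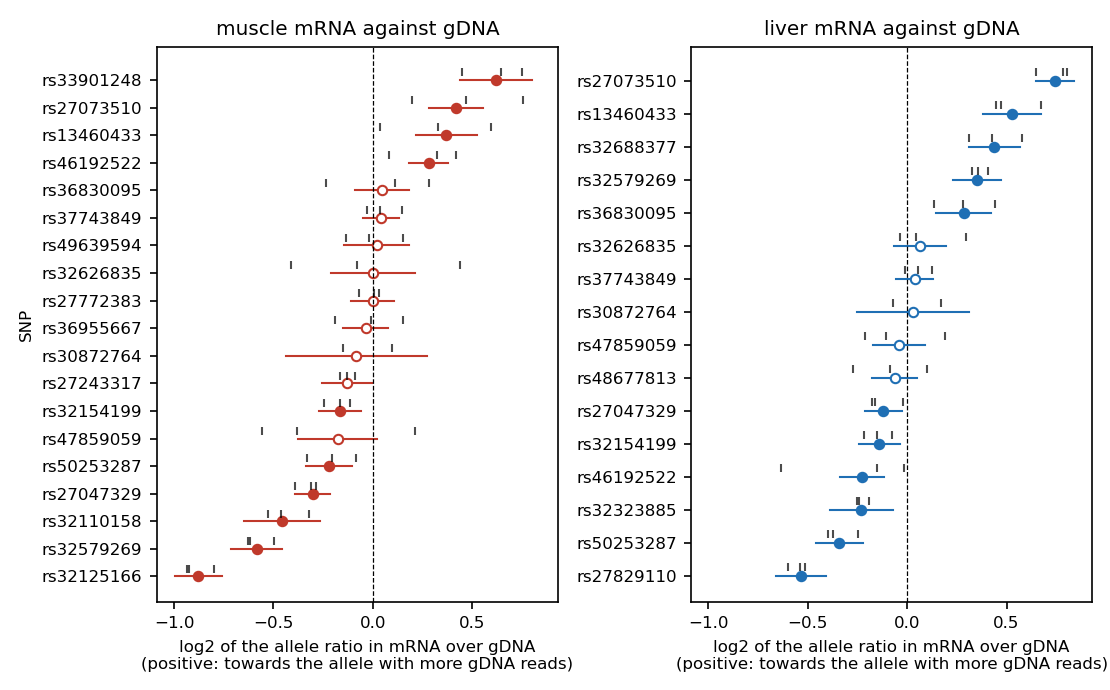
Log2 of the allele ratio in muscle mRNA (left) and liver mRNA (right) over that in gDNA, for 19 and 16 SNPs, with positive values towards the allele that had more gDNA reads. Circles are values from summed reads with 95% intervals from counting, filled where called, and black ticks are single runs. Shifts went both ways in both tissues, with rs32125166 the most negative in muscle and rs27073510 the most positive in liver; both panels use the same gDNA reads.

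Shifts in both tissues went towards either base. In muscle, 16 of the 19 SNPs set a G or C allele against an A or T allele, and the ratio moved towards G or C at 7 of them. Of the 9 called among them it moved so at 4. In liver, it moved towards G or C at 5 of 14 SNPs, all 5 of them among the 11 called. The same counts over the series were not worked out. The allele with more gDNA reads gained at 4 of 10 called SNPs in muscle and 5 of 11 in liver. That allele was picked from the same gDNA reads that enter the shift, so counting error in gDNA favours its fall in advance. Muscle and liver also share these gDNA reads, and the share over the series was not worked out. No conclusion on a preferred allele is therefore drawn from these counts.

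The direct comparison of muscle with liver mRNA needs no gDNA and asks whether the alleles of a transcript stand in the same ratio in both tissues. A difference was called at 5 of 12 SNPs (41.7%), and 62% of the 50 SNPs of the series measured in both tissues were called. The median difference was 1.11-fold over the 12 SNPs and 1.19-fold over all 50. By far the widest was at rs32579269, where G took 59.0%, 59.6% and 57.0% of muscle reads and 42.3%, 43.1% and 41.4% of liver reads. The most frequent allele itself changed between tissues, and the ratio differed 1.91-fold (1.74 to 2.09; adjusted p = 1.52e-43 by Fisher's exact test). The log2 differences in runs 1 to 3 were 0.97, 0.96 and 0.90. It was the only SNP of this cross past 1.5-fold, of 8 in the series.

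At rs46192522, C took 57.2%, 56.8% and 58.1% of muscle reads and 49.0%, 49.4% and 45.8% of liver reads. The ratio of C to T was 1.42-fold higher in muscle (1.34 to 1.51; adjusted exact p = 3.05e-31), and the runs of the tissues did not overlap. Against gDNA the picture was less firm, because the gDNA runs of this SNP read 51.7%, 49.6% and 56.7% C and differed beyond counting error (adjusted p = 0.0278 by the chi-square test between runs). The shift towards T in liver was not called without run 3 (adjusted p = 0.238 by Fisher's exact test), while the muscle-liver difference was called with each run left out in turn.

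At rs27073510 both tissues favoured A over gDNA, with A at 62.4%, 65.0% and 68.7% of muscle reads and 69.5%, 69.8% and 69.5% of liver reads. The ratio of G to A was 1.25-fold higher in muscle (1.14 to 1.37; adjusted exact p = 4.74e-06). The difference was smallest in run 3, where its log2 value was 0.05 on 435 muscle reads.

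The 2 remaining differences were smaller. At rs36830095, G took 50.5%, 52.2% and 52.0% of muscle reads and 56.9%, 55.1% and 54.8% of liver reads, a ratio of A to G 1.18-fold higher in muscle (1.07 to 1.30; adjusted exact p = 0.00144). Its gDNA runs, at 54.6%, 50.3% and 47.1% G, also differed beyond counting error (adjusted p = 0.0319 by the chi-square test between runs). At rs27047329, T took 54.6%, 53.3% and 56.7% of muscle reads and 52.3%, 51.2% and 50.3% of liver reads, 1.14-fold over C (1.06 to 1.21; adjusted exact p = 0.00033). Neither was called with the quasi-binomial model (adjusted p = 0.0642 and 0.0770), and rs36830095 was not called without run 1 (adjusted p = 0.0889 by Fisher's exact test).

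The 7 SNPs without a called difference were rs13460433 (C over A higher in muscle, 1.12-fold, 0.989 to 1.26), rs47859059 (T over C, 1.10-fold, 0.962 to 1.25), rs50253287 (T over C, 1.09-fold, 0.999 to 1.18), rs30872764 (A over T, 1.08-fold, 0.821 to 1.42), rs32626835 (T over A, 1.05-fold, 0.909 to 1.20), rs32154199 (G over A, 1.02-fold, 0.951 to 1.09) and rs37743849 (A over C, 1.002-fold, 0.940 to 1.07). The intervals of rs32154199 and rs37743849 ended at 1.09-fold and 1.07-fold, whereas that of rs30872764 reached 1.42-fold. Muscle and liver runs overlapped at all of these SNPs except rs50253287, where T took 46.8% of muscle and 44.7% of liver reads.

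**Figure D3:**
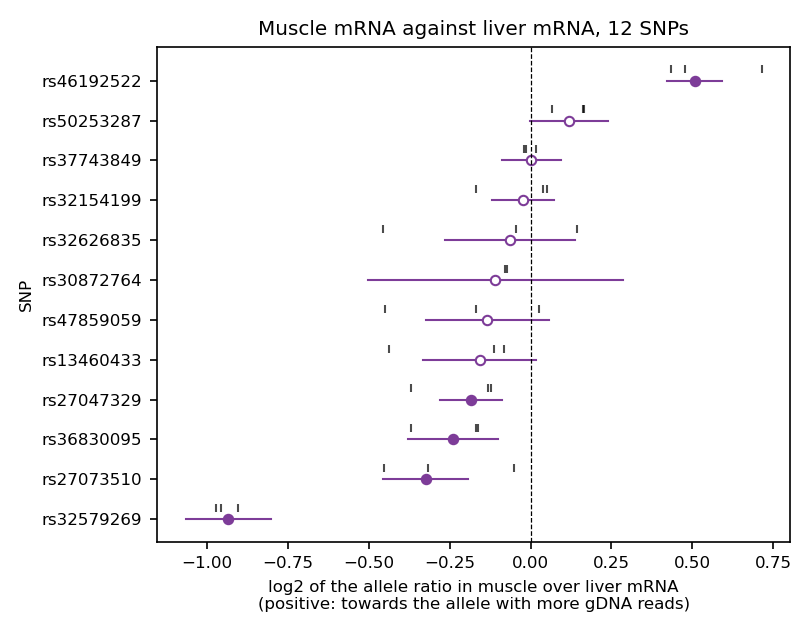
Log2 of the allele ratio in muscle mRNA over that in liver mRNA for the 12 SNPs measured in both tissues, with positive values towards the allele that had more gDNA reads. Circles are values from summed reads with 95% intervals from counting, filled where called, and black ticks are single runs. rs32579269 lies at -0.93 and rs46192522 at 0.51, while the intervals of the 7 open circles include 0.

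No pool held more than 1 template of a SNP, and the effect of template and that of pool cannot be told apart. Calls in muscle were made at 5 of 9 SNPs with muscle in pool 3 and gDNA in pool 1, 1 of 4 with pools 3 and 2, and 4 of 6 with pools 4 and 1. In liver they were made at 4 of 6 SNPs with liver in pool 2 and gDNA in pool 1, 4 of 6 with pools 4 and 1, and 3 of 4 with pools 4 and 2. Between the tissues they were made at 3 of 6 SNPs with muscle in pool 3 and liver in pool 4, and at 2 of 6 with pools 4 and 2. Over all pools, 62.7% of the SNPs of the series were called in muscle, 65.6% in liver and 62% between the tissues. Shares of the series per pair of pools were not worked out, and a difference between these small groups was not tested.

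Runs repeat the sequencing of an amplicon, so their spread leaves out differences between amplifications. Over the 58 amplicons of this cross, the SD of an allele share over runs had a median of 1.37 percentage points and ranged from 0.197 (rs27073510 in liver) to 5.90 (rs32626835 in muscle). The SD expected from counting was exceeded at 31 of the 58, and the median ratio of observed to expected SD was 1.03. The variance between runs, taken from the chi-square statistic, averaged 1.70 times that of counting. By pool this mean ran from 1.38 in pool 2 to 2.07 in pool 1. Counting error, on which Fisher's exact test and the intervals rest, was thus too small for part of the amplicons. Only the gDNA amplicons of rs46192522 and rs36830095 differed between runs after adjustment by the chi-square test (9 of 58 at an unadjusted p under 0.05), and 3.51% of the 228 amplicons of the series did so.

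**Figure D4:**
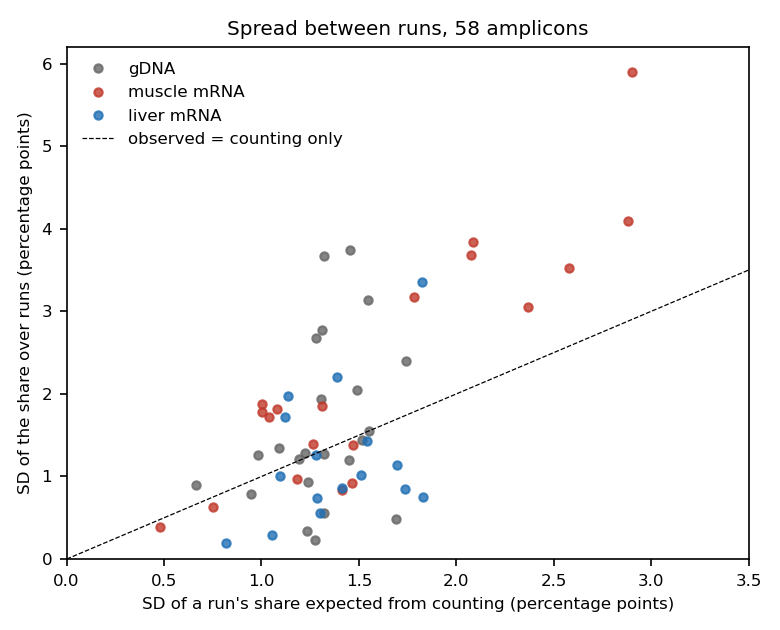
SD of an amplicon's allele share over its runs (y axis, percentage points) against the SD that counting alone gives at its depth (x axis, percentage points), for the 58 amplicons in gDNA (grey), muscle mRNA (red) and liver mRNA (blue). The dashed line marks equality; 31 amplicons lie above it, and the highest, at 5.90, is rs32626835 in muscle with 949 reads.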

How the data were processed

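The authors deposited raw read counts of the 2 alleles of each SNP, for 12 samples (4 amplicon pools, each in 3 pyrosequencing runs), with template, cross and primers per the file headers. How reads were assigned and filtered, and the build, is not given in the sources used. The first-listed allele changed between files at 20 of the 23 SNPs, so alleles were matched by base. Single runs of a pool held 41332 to 108526 reads over all crosses, and counts were summed over runs. Templates were compared by Fisher's exact test, two-sided, and gDNA was set against an even split by an exact binomial test (two-sided), each adjusted by the Benjamini-Hochberg method over all SNPs of the series measured (minimum 20 reads per template). Folds are ratios of allele ratios with 0.5 added to each count. Runs of an amplicon were compared by a chi-square test. Scripts used Python 3.11.15 and SciPy 1.17.1. They were tested on simulated counts with binomial error alone, without the extra spread between runs seen here, so that test does not bear on the calls.

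The alternatives were stratification by run (Cochran-Mantel-Haenszel), quasi-binomial models of the 3 runs (F test, dispersion not below 1), extra variance between amplicons (SD 0.0754 on the log2 scale, from gDNA), other read minima, no added count, a 1.5-fold minimum, mRNA against 1:1, and each run left out. The SD of 0.0754 came from the scaled median of the absolute log2 gDNA ratios over the SNPs of the series, less the median counting variance. A median gives little weight to strongly skewed amplicons, such as rs33901248 (log2 gDNA ratio 3.26) and rs30872764 (2.05). The SD therefore does not cover skews of that size. No amplification was repeated, so the variance between amplifications of a SNP was not measured. All 23 SNPs are named, and runs are given for SNPs called between tissues, the 5 largest called shifts of each tissue and gDNA ratios of 1.5-fold or more. Members and tests were chosen with earlier results of these data known.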

Additional observations from a re-analysis of the deposited data

Results flagged for a closer look

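At 5 SNPs the shift against gDNA differed between the tissues by Fisher's exact test of the muscle and liver reads themselves. The allele ratio differed 1.91-fold at rs32579269, 1.42-fold at rs46192522, 1.25-fold at rs27073510, 1.18-fold at rs36830095 and 1.14-fold at rs27047329. Muscle and liver shifts of a SNP share their gDNA reads, and the difference between the tissues does not use them.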

How the results depend on the processing

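The test stratified by run (the run as replicate block) gave 10 SNPs in muscle, 11 in liver and 5 between tissues, the same SNPs as without the block. In the series it called 45 of 75 SNPs in muscle and 42 of 64 in liver. The labels place the pools on a shared plate but do not say that runs of the same number were run together, and run deviations of a SNP in different templates did not go together in every run (correlation over SNPs -0.53 to 0.57), so a pairing by run number is not shown. Read minima of 10, 50 or none and no added count changed no call. The quasi-binomial model called 5 SNPs in muscle, 6 in liver, 3 between tissues and 2 in gDNA, all among those called by the main tests. Over the whole series this model called 23 of 75 SNPs in muscle and 26 of 64 in liver. With extra variance between amplicons 7 were called in muscle, 6 in liver and 3 between tissues, and in the series 24 of 75 in muscle and 26 of 64 in liver. For the comparison between tissues and for gDNA, series counts under the alternatives are not given here. A minimum of 1.5-fold left 2, 1 and 1 SNPs, and 3 in gDNA. In the series it left 13 of 75 SNPs in muscle and 9 of 64 in liver. Leaving out each run in turn gave 9 to 11 SNPs in muscle, 9 to 10 in liver, 4 to 5 between tissues and 5 to 8 in gDNA. The series counts were then 40 to 41 of 75 in muscle and 36 to 41 of 64 in liver. Against 1:1 without gDNA, 12 were called in muscle and 11 in liver, and in the series 58 of 75 and 45 of 64. Of the 12 and 11, 9 and 9 were among those called against gDNA. In liver rs27047329 and rs32323885 were lost and rs30872764 and rs32626835 gained. In that setting 3 muscle values that were called with or without gDNA turned in sign (log2), namely rs30872764 (-1.97), rs27772383 (-0.14) and rs32125166 (-0.035), as did the liver value of rs48677813 (-0.075), called in neither. Both mRNA templates of a SNP rest on 1 amplification of 1 tissue pool, so the error between animals was not measured, and depth limits the shallowest muscle amplicons, where intervals reached 1.35-fold at rs30872764 (488 reads) and 1.16-fold at rs32626835 (949 reads).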
